A study of Caenorhabditis elegans with 2 samples.

Results

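RNA-induced silencing complexes (RISC) are the protein assemblies through which small RNAs act on messenger RNA. In Caenorhabditis elegans, Dicer cuts microRNA (miRNA) precursors, an Argonaute protein binds the mature miRNA, and proteins of the GW182 family carry the Argonaute to the machinery that silences and degrades the target. Further proteins were found in such complexes without being Argonautes, among them VIG-1 and TSN-1. Here 7 genes of this machinery were examined for binding of the protein ZK546.5 near their starts. They were vig-1 and tsn-1, which encode the RISC cofactors, and alg-1 and alg-2, which encode Argonautes of the miRNA pathway. The others were ain-1 and ain-2, for the GW182 proteins, and dcr-1, which encodes Dicer. All 7 were found by name, and each once, among the 46926 genes of the annotation, of which 19985 are protein-coding. The gene list was drawn up with the strength of the call at vig-1 already known, so the positions and strengths below describe these genes and were not tested.

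The data came from chromatin immunoprecipitation with sequencing (ChIP-seq), which recovers and sequences the DNA that a chosen protein sits on. There was 1 group, of 2 biological replicates: whole L3 larvae of both sexes from strain OP231, genotype unc-119(ed3) III; wgIs231, in which ZK546.5 is expressed from a stably carried transgene with GFP-FLAG at its C terminus. There was no second condition, both replicates were called against the same control file, and the signal from all tissues of the animal is mixed. The deposited files gave 30000 calls for each replicate, 30000 for the pooled data and a thresholded set of 261 peaks, and no read counts, so the depth is unknown. Each call has a summit and a signal value, the authors' own measure on a scale that differs between lists, which was used to rank calls within a list. The lowest signal value listed was 12.97 in the pooled list, 8.46 in replicate 1 and 5.98 in replicate 2, so a gene without a call had at most a weaker one. The thresholded set was the strongest 261 calls of the pooled list.

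A strong call lay just upstream of vig-1 alone among the 7 genes. It sat on chromosome II from 1320433 to 1320823 on build ce11, in intergenic sequence, with its summit at 1320613, which is 424 bp upstream of the annotated vig-1 5′ end at 1321037 and 174 bp past the 3′ end of fcho-1, the gene before it on the same strand. The 300 bases around this summit (chrII:1320463-1320762, plus strand, which is also the strand of vig-1) are printed because they hold the strongest call of these genes. Capitals mark a stretch of 12 bases that occurs once in each orientation.

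vig-1 call: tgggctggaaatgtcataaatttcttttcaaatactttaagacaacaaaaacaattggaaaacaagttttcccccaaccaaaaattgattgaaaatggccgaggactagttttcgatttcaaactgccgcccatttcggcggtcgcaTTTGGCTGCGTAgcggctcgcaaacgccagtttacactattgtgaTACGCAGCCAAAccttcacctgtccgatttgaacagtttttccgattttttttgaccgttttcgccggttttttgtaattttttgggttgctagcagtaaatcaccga

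The arms TTTGGCTGCGTA and TACGCAGCCAAA are exact reverse complements of each other, separated by 33 bp. The left arm began 3 bp before the pooled summit and the right arm ended 53 bp after it. The repeat was noticed in this sequence and then searched elsewhere, so its counts are a description. The vig-1 call, from which the word was read, is itself among the thresholded peaks counted at each word length. In 200 bp around the summit, the 12-base arm in either orientation was found at 2 of 261 thresholded peaks (0.766%) and at 3 of the other 29739 pooled calls (0.0101%). Shortened to its inner 10 bases, TACGCAGCCA, it was found at 3 thresholded peaks and 6 other calls, and as TACGCAGC, 8 bases, at 15 (5.75%) and 35 (0.118%). In the nuclear genome the 12-base arm occurred 18 times, the 10-base word 93 times and the 8-base word 1019 times. Most occurrences of each thus lay outside the 200 bp around a pooled summit. Of all 30000 pooled calls, 2 held the 8-base word in both orientations in that window. One was the call at vig-1 and the other the call at rps-14, a small-subunit ribosomal protein gene, with rank 69 and a summit 259 bp upstream of the rps-14 5′ end. The 200 bases around that summit (chrIII:7179747-7179946, plus strand, rps-14 itself being on the minus strand) are shown for comparison, with the 10-base word of both orientations in capitals, separated there by 22 bp.

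rps-14 call: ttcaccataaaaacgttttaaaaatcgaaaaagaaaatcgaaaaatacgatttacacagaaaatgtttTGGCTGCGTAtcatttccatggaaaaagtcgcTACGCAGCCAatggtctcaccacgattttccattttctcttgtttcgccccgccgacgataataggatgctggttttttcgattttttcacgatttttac

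Each arm contains the hexamer ACGCAG in one orientation, a word already known to be frequent at the peaks of this experiment. In 100 bp around the summit the vig-1 call held ACGCAG 2 times, whereas the strongest pooled calls at tsn-1, alg-2, ain-1 and ain-2 held it 0 times. Over all calls it was found at 48 of 261 thresholded peaks (18.4%) and 488 of 29739 other pooled calls (1.64%). A further word known from the peaks, GACGCA, overlaps ACGCAG by all but its last base and had no match in that window, on either strand, at any of the 5 genes with a pooled call. The same held for CGAGAC, which was found at 18.4% of thresholded peaks and 2.06% of other pooled calls. It held as well for ACCGTA, found at 16.9% of thresholded peaks and 2.35% of other pooled calls. All of these hexamers were already reported for these data, so their higher shares at thresholded peaks give no independent support. In the 500 bp before the 5′ end, apart from any call, words of this kind were present at vig-1 (ACGCAG, in the arms of the repeat), tsn-1, alg-2 and dcr-1, while alg-1, ain-1 and ain-2 held none of them. At alg-2 these included ACGCAG, 2 times, although its call lay on the other side of the 5′ end. Each word was present before 12.6% to 13.9% of the nuclear protein-coding genes. In the same 500 bp of all nuclear protein-coding genes, the 8-base word in both orientations was found at 5 of 19973. Besides vig-1 and the divergent pair of rps-14 and rpl-36, which share the peak, these were mep-1 and cku-70. Their strongest pooled calls ranked 17200 for mep-1 and 17029 for cku-70, and neither had a thresholded peak within 1000 bp. In replicate 2 the strongest calls ranked 1747 for mep-1 and 13775 for cku-70, while replicate 1 had no call within 1000 bp of either.

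The vig-1 call was strong in both replicates and at nearly the same base. Its signal value was 357 in replicate 1 (rank 19 of 30000), 494 in replicate 2 (rank 13) and 849 in the pooled list (rank 14). The summit of replicate 1 was 2 bp to the right of the pooled one, and that of replicate 2 was 1 bp to the left. Relative to the highest call of its list, the value was 54.1% in replicate 1 and 63.8% in replicate 2. The pooled value was 65.5 times the lowest in the list. Since the scale of the signal value is not stated, these proportions cannot be read as amounts of binding. Of the 19985 protein-coding genes, 24 (0.12%) had a stronger pooled call within 1000 bp of the 5′ end. The interval was 391 bp long where 99.7% of pooled calls had the caller's usual 344 bp, and 19 nuclear calls in the pooled list were wider than that.

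**Figure D1:**
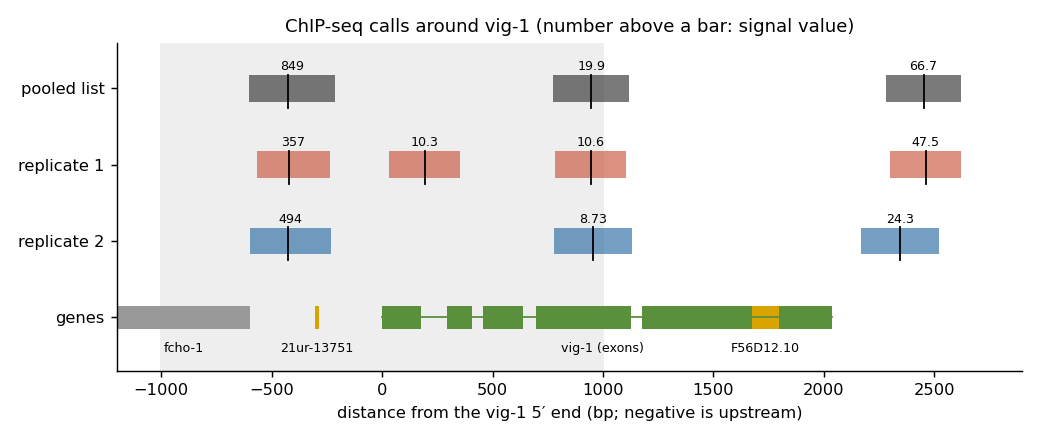
Calls of the pooled list and of each replicate (bars, with a black line at the summit and the signal value above) against distance from the vig-1 5′ end in bp, over the annotated genes, with the 1000 bp window in grey. The 3 summits upstream of vig-1 lie at 422 to 425 bp, and a weaker call in every list lies past the 3′ end of the gene.

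No other protein-coding gene began within 1000 bp of this summit. The single neighbour that shared the call was 21ur-13751, an annotated gene for a PIWI-interacting RNA (piRNA), a class of small RNA that guides a separate Argonaute in the germline. It lies on the same strand inside the call, with its 5′ end 120 bp from the summit and its 3′ end 284 bp from the start of vig-1. Its sequence is shown because it is the small RNA gene that shares the call (chrII:1320733-1320753, plus strand).

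21ur-13751: ttttttgggttgctagcagta

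From the summit to the vig-1 start codon the distance was 535 bp. Weaker calls lay inside vig-1 in every list except the thresholded set, at 947 bp from the 5′ end in the pooled list (19.9, rank 9833), 945 bp in replicate 1 and 957 bp in replicate 2. Whether the upstream the call belongs to vig-1, to the piRNA gene or to the end of fcho-1 was not tested.

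A further thresholded peak lay beyond the other end of vig-1. Its summit was 416 bp past the 3′ end and 2452 bp from the 5′ end, in intergenic sequence before jip-1, so it fell outside the 1000 bp window. The signal value was 66.7 in the pooled list (rank 183), 47.5 in replicate 1 (rank 107) and 24.3 in replicate 2 (rank 436). The summits of the replicates were at 2462 bp and 2345 bp from the vig-1 5′ end, so they did not coincide as those of the upstream call did. From 5000 bp before vig-1 to 5000 bp after it there were thus 2 thresholded peaks, against 0 over the same span around each of the other 6 genes.

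The call at vig-1 was set beside those next to it in the pooled ranking, which served as the measure of likeness. These were the calls nearest to egl-30, which encodes a G protein alpha subunit, and wapl-1, a cohesin release factor, just above it, and to ntl-2, a subunit of the CCR4-NOT deadenylase, and rfc-4, a replication factor C subunit, just below. Their pooled values were 852 at egl-30, 851 at wapl-1, 847 at ntl-2 and 824 at rfc-4, compared with 849 at vig-1. The replicates did not keep this order. In replicate 1 vig-1 ranked above egl-30 (rank 25), wapl-1 (20) and rfc-4 (22) and below ntl-2 (14), while in replicate 2 it ranked below egl-30 (10) and wapl-1 (12) and above rfc-4 (14) and ntl-2 (15). The vig-1 call can therefore be placed among the strongest of the experiment, but not in a fixed order with these neighbours. The summit at ntl-2 lay 422 bp upstream of its 5′ end, close to the distance at vig-1, whereas those at egl-30, wapl-1 and rfc-4 lay at 67, 174 and 151 bp.

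**Figure D2:**
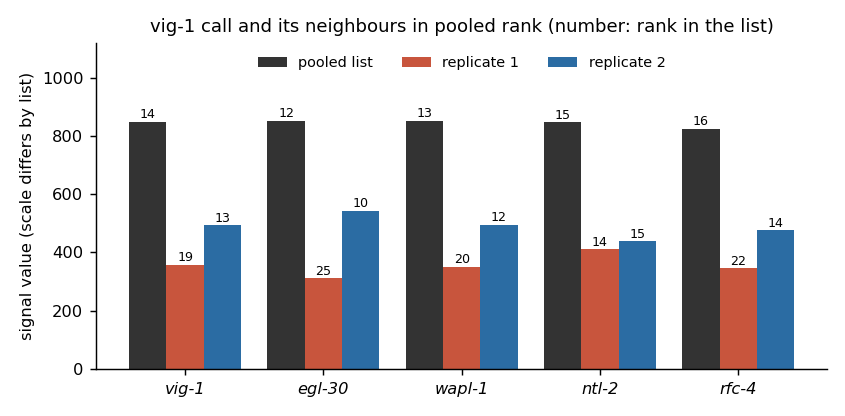
Signal values (bars; the scale differs by list) of the vig-1 call and of the 2 nuclear calls above and the 2 below it in the pooled ranking, named by the nearest protein-coding 5′ end, with the rank within each list above the bar. Pooled values lie between 824 and 852, and the order of the genes differs between replicate 1 and replicate 2.

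Calls of any strength were frequent over the whole genome, so that their presence at these genes says little. Within 1000 bp of the 5′ end, 5 of the 7 had a pooled call, against 48.9% of all protein-coding genes. In replicate 1 the count was 3 of 7 (49.6% of all) and in replicate 2 it was 6 of 7 (49.1% of all). A call in both replicate lists was found at 3 of 7, namely vig-1, tsn-1 and ain-1, against 28.5%. This count did not require the replicate calls to be at the same place. At tsn-1 they lay 860 bp (replicate 1) and 341 bp (replicate 2) upstream, and at ain-1 that of replicate 1 ranked 29848. A thresholded peak, which 1.49% of protein-coding genes had, was found at vig-1 only. The median pooled value of the 5 genes with a call was 26.9, and over all protein-coding genes with one it was 18.8. In the pooled list the call nearest to the edge of the window on its inner side was that at ain-1, 984 bp from the 5′ end, followed by the weaker one at vig-1, at 947 bp. The nearest outside in that list were at ain-2, 1911 bp, and ain-1, 2199 bp. In replicate 1 the nearest inside were at vig-1, 945 bp, and ain-1, 885 bp, and the nearest outside at ain-1, 1102 bp, and dcr-1, 1265 bp. In replicate 2 they were at vig-1, 957 bp, and ain-1, 859 bp, inside, and at alg-2, 1173 bp, and ain-2, 1667 bp, outside.

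**Figure D3:**
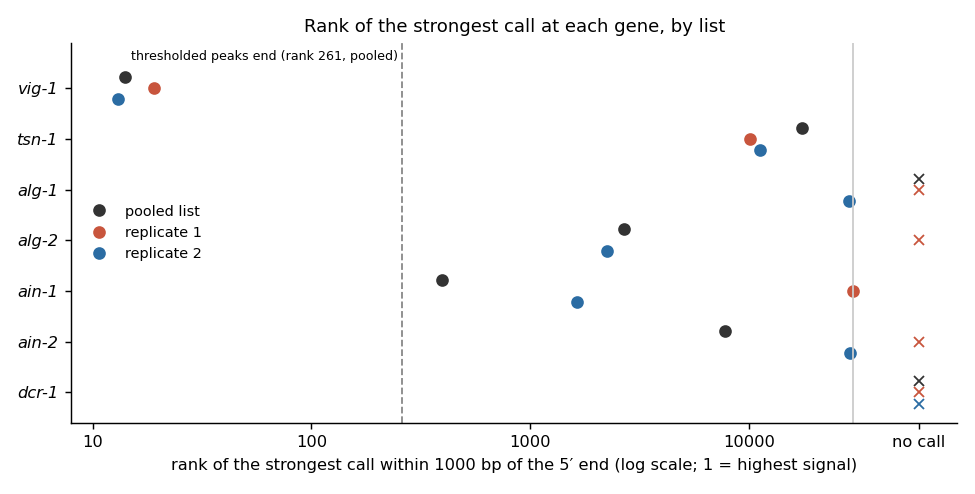
Rank of the strongest call within 1000 bp of each gene's 5′ end (log scale, 1 being the highest signal) in the pooled list and in each replicate, with crosses for genes without a call, a dashed line at the 261 calls of the thresholded set and a grey line at 30000, the end of each list. The points of vig-1 lie together between ranks 13 and 19, while ain-1 has rank 395 in the pooled list and rank 29848 in replicate 1, whose stronger call of rank 1046 lies 102 bp beyond the window and is not plotted.

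The other RISC cofactor, tsn-1, which encodes a Tudor and staphylococcal nuclease domain protein, had weak calls only. The gene lies from 4706821 to 4710168 on chromosome II, plus strand. The pooled value was 16.55 (rank 17518), with 13.3 in replicate 1 (rank 10130) and 9.78 in replicate 2 (rank 11198). The pooled summit was 865 bp upstream of tsn-1, inside a coding exon of F10G7.9, the gene that starts on the opposite strand 336 bp away. The summit of replicate 1 was 5 bp from the pooled one, but that of replicate 2 was elsewhere, 341 bp upstream of tsn-1 and 5 bp inside F10G7.9. Of all protein-coding genes, 32.9% had a stronger pooled call.

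The Argonaute genes alg-1 and alg-2 encode close paralogs, and the calls at them were weak or missing. At alg-1 (chromosome X, 13949110 to 13956261, plus strand) there was no call within 1000 bp of the gene's 5′ end in the pooled list or in replicate 1. The gene has 4 annotated transcript starts, the farthest 2152 bp downstream. With every start counted, alg-1 had a call in replicate 1, 2778 bp from the 5′ end (9.14, rank 26141), and still none in the pooled list. Replicate 2 had 1, with a value of 6.14 (rank 28871), 56 bp upstream of the 5′ end and 145 bp upstream of the snoRNA gene K02B9.10, which lies within the alg-1 gene. Beyond the window, but within 1000 bp of the farthest transcript start, replicate 2 had a stronger call in the annotated 5′ UTR. It lay 1680 bp downstream of the 5′ end (14.7, rank 2778). The strongest pooled call along alg-1 had rank 1449 and lay at its other end, in the 3′ UTR, 6431 bp from the 5′ end.

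At alg-2 (chromosome II, 873212 to 879885, plus strand) the call was in the gene rather than before it. The pooled value was 26.9 (rank 2689) and that of replicate 2 was 15.5 (rank 2244), while replicate 1 had no call within 1000 bp. The pooled summit lay 301 bp downstream of the 5′ end, in an intron, and was 647 bp upstream of the start of the shorter annotated transcript, which begins 948 bp further along. The summit of replicate 2 was 39 bp from the pooled one. The non-coding gene T07D3.12 started 139 bp from the summit. This was also the only pooled call in the 16.7 kb from 5000 bp before alg-2 to 5000 bp after it, or 0.06 calls per kb, against 0.299 per kb over the nuclear genome. The 200 bases around the summit (chrII:873413-873612, plus strand) are shown because they contrast with the vig-1 call, having none of the words searched.

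alg-2 call: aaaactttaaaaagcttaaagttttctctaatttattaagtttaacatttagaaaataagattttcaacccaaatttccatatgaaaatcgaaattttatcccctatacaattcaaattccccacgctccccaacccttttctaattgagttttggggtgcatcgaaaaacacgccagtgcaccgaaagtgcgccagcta

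Of the GW182 genes, ain-1 had a call in both replicates around the pooled summit, and ain-2 had none in either. At ain-1 (chromosome X, 16613451 to 16616871, plus strand) the pooled value was 42.0 (rank 395), the second of the 7 genes, and 2.05% of protein-coding genes had a stronger one. The pooled summit lay 984 bp upstream, close to the edge of the window. Replicate 1 had its stronger call just beyond that edge, 1102 bp upstream and 118 bp from the pooled summit, with a value of 21.9 (rank 1046). A weaker one, of 8.49 (rank 29848), lay inside the window, 99 bp from the pooled summit on the side of the gene. In replicate 2 the value was 16.7 (rank 1638), at a summit 125 bp from the pooled one on that same side. The replicates thus differed in where the summit fell by more than at vig-1. The call was below the thresholded set, whose lowest value was 51.5. Its sequence is shown because it was the strongest after vig-1 (chrX:16612367-16612566, plus strand, the strand of ain-1). GC content in these 200 bp was 55.0%, above that of 99.5% of pooled calls, and none of the words searched was present.

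ain-1 call: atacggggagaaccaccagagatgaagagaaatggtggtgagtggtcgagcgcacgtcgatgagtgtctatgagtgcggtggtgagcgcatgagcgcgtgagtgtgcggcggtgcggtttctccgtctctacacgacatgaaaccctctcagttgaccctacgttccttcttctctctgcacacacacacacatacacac

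At ain-2 (chromosome I, 4653467 to 4660153, plus strand) the pooled value was 21.1 (rank 7823) at a summit 534 bp upstream, with no call of either replicate within 200 bp of it. That summit was 27 bp upstream of ptps-1, the gene that starts on the opposite strand 561 bp away, so it was much nearer to ptps-1 than to ain-2. The single replicate call in the window, in replicate 2, was on the other side, 714 bp downstream, with a value of 6.11 (rank 29069). A stronger one of replicate 2 lay beyond the window, 1667 bp upstream (14.4, rank 2998). The strongest pooled call along ain-2 had a value of 28.0 (rank 2220) and lay in an intron, 3617 bp from the 5′ end, and the 8 pooled calls from 5000 bp before to 5000 bp after the gene came to 0.479 per kb.

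The Dicer gene was without a call near its start. In none of the lists did a summit lie within 1000 bp of the 5′ end of dcr-1 (chromosome III, 8071967 to 8080281, minus strand), as was the case for 26.7% of protein-coding genes. The gene apc-2, which encodes a subunit of the anaphase-promoting complex, starts 348 bp away on the opposite strand. No summit of any list lay between these starts. The nearest call of any list was in replicate 1, 1265 bp upstream of dcr-1, in a coding exon of apc-2 (10.8, rank 18099). It was 917 bp downstream of the apc-2 5′ end, so apc-2 did have a replicate 1 call within 1000 bp. Of the 2 pooled calls in the 18.3 kb around dcr-1, the stronger had rank 844 and lay 82 bp past its 3′ end.

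**Figure D4:**
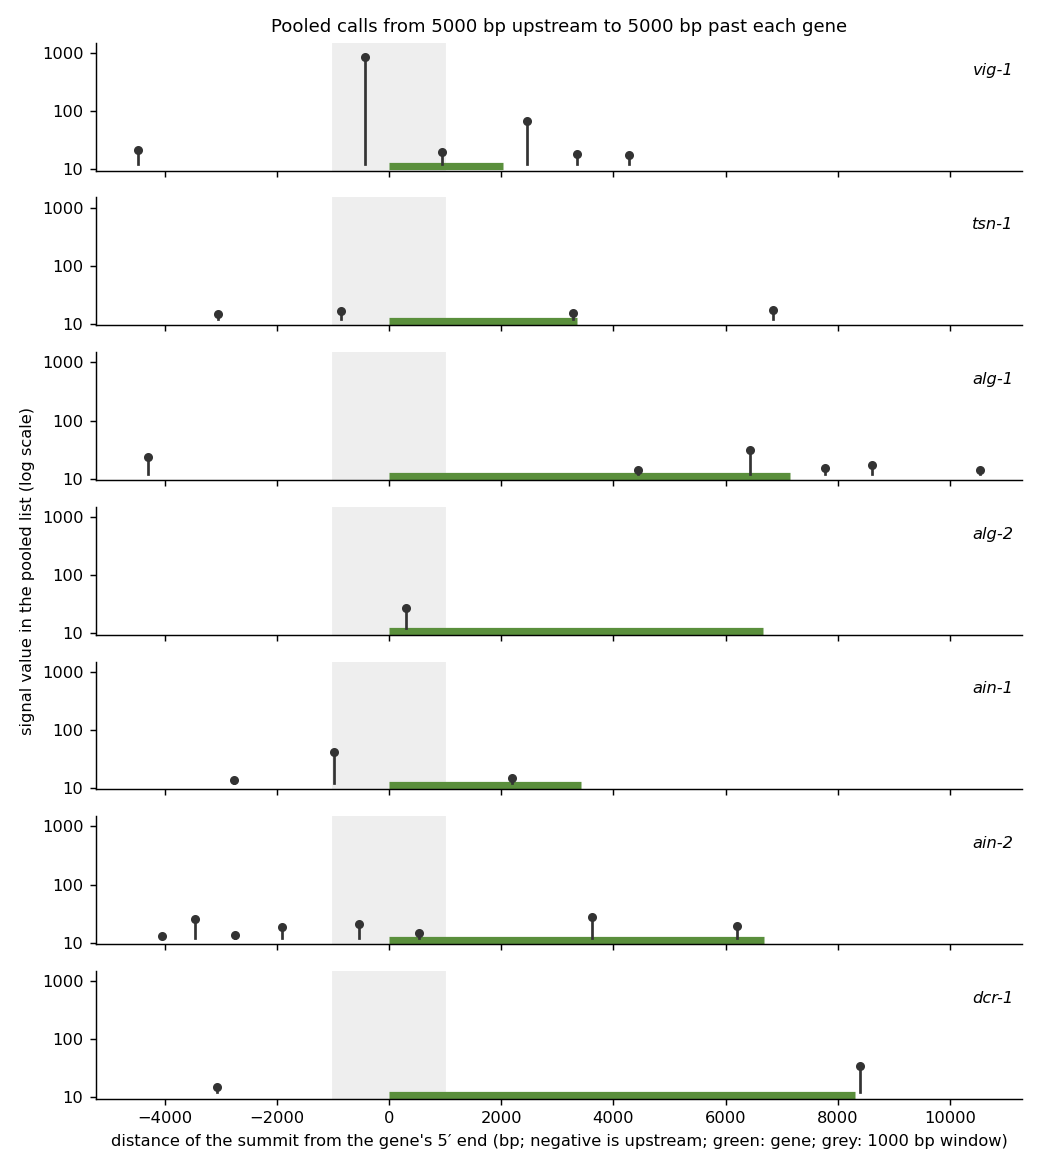
Signal values in the pooled list (log scale) of every call from 5000 bp before to 5000 bp after each gene, against distance from the 5′ end in bp, with the gene in green and the 1000 bp window in grey. The window holds values of 849 and 19.9 at vig-1, values of 14.99 to 42.0 at the other genes with a call, and none at alg-1 and dcr-1.

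After vig-1, ain-1 had the highest value in the pooled list (42.0) and in replicate 2 (16.7). In replicate 1 it stood above tsn-1 (13.3) with its call beyond the window (21.9) and below tsn-1 with the one inside (8.49). The genes after ain-1 had different orders within the window, alg-2, ain-2 and tsn-1 in the pooled list, and alg-2 (15.5), tsn-1 (9.78), alg-1 (6.14) and ain-2 (6.11) in replicate 2. GC content in 200 bp around the pooled summit was 45.5% at vig-1, 55.0% at ain-1, 36.0% at tsn-1, 34.5% at alg-2 and 30.5% at ain-2. The mean of the 261 thresholded peaks, mitochondrial ones included, was 40.2% ± 9.81 (SD), and that of the remaining 29739 calls was 31.4% ± 6.87 (SD). None of the 200 bp windows had a further match in the genome with blastn at an E-value of 1e-05 or lower.

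**Figure D5:**
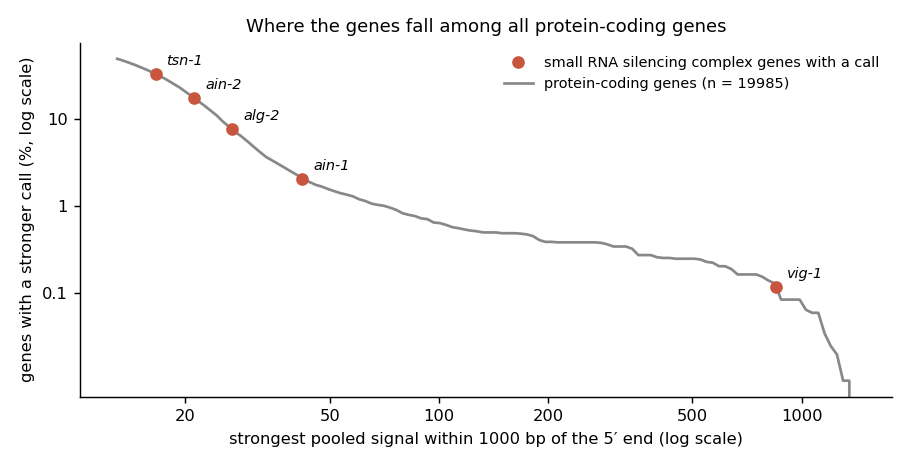
Percentage of the 19985 protein-coding genes with a stronger pooled call within 1000 bp of the 5′ end (log scale) against the signal value (log scale), with the 5 genes that had a call as points on the curve. The point of vig-1 is at 0.12% and the others are between 2.05% and 32.9%.

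The rest of the small RNA machinery was looked at through 4 lists of related genes. Their counts are read against all protein-coding genes, of which 48.9% had a pooled call and 1.49% a thresholded peak. Among other Argonautes, 8 of 18 (44.4%) had a pooled call, which is near that background, and 1 had a thresholded peak, at alg-5 (value 80.3, rank 143), where the summit was 814 bp upstream and only 144 bp upstream of the histone gene his-68. Among genes of miRNA processing and turnover, 6 of 9 (66.7%) had a pooled call. The 1 thresholded peak there was at nhl-2, a cofactor of the miRNA complex (105, rank 107), with its summit 861 bp upstream and nearer to tag-340. The call at pash-1, which encodes the partner of Drosha, had a value of 50.6 (rank 270), just under the thresholded set, and lay 49 bp upstream of the gene. Its value was 27.3 in replicate 1 (rank 332) and 24.2 in replicate 2 (rank 439).

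Among 31 genes of siRNA production and inheritance, 20 (64.5%) had a pooled call and 0 a thresholded peak, the strongest calls being at rde-4, a double-stranded RNA binding partner of Dicer (47.4, rank 309), and ekl-1 (27.9, rank 2248). The first summit lay 153 bp from rde-4 and 143 bp from cox-14, nearly the same distance. The replicate summits were 119 bp (replicate 1) and 152 bp (replicate 2) from rde-4. The second summit was nearer to prpf-4 (341 bp) than to ekl-1 (422 bp). Deadenylation and decapping genes, through which GW182 proteins act, had pooled calls at 10 of 21 (47.6%), again near the 48.9% of all protein-coding genes, and thresholded peaks at 2, ntl-2 (847, rank 15) and ntl-11 (86.2, rank 132). Both of these belong to the CCR4-NOT complex, and their summits were nearer to them than to any other protein-coding gene. The median pooled value of the genes with a call was 20.03 in the Argonaute list, 25.1 in the miRNA list, 23.5 in the siRNA list and 24.4 in the deadenylation list, against 18.8 over all protein-coding genes with a call.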

How the data were processed

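TF ChIP-seq calls for tagged ZK546.5 in L3 larvae were taken as deposited, on build ce11. The notes deposited with the files say that each replicate list came from that replicate's alignments and 1 shared control file, that the pooled list came from both, and that the thresholded set came from these 3 lists by the irreproducible discovery rate procedure. For aligner, caller and threshold, the sources used here name none. The authors' deposited signal value (column 7) has no stated scale, so it was ranked within a list. The depth is unknown, and the 2 replicates limit the precision.

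Summits (interval start plus the deposited offset) were compared with gene 5′ ends of the Ensembl release 115 annotation, and ce11 sequence came from the RefSeq FASTA. The strongest call with its summit within 1000 bp stood for a gene. Words were searched on both strands. Percentages over all protein-coding genes are the background. No test was made. The genes and lists were chosen with earlier results of these data known. Named genes were the 7, every gene sharing a call, genes of each list with a thresholded peak or otherwise the highest pooled values, and the calls adjacent to vig-1 in rank. The inverted repeat, the calls past the genes' ends and past the window, pash-1, rps-14, mep-1 and cku-70 were chosen after their values were seen. Names without a match in the annotation were left out (wago-2, wago-3, wago-11, rde-3, drh-2, mut-8, cde-1 and ntl-1). Some of them are older names of genes already in the lists, which were counted under their current names. Finding of calls near 5′ ends was tested on simulated data. The ce10 lists were not used here. Python 3.11.15, numpy 2.4.6, pandas 2.3.3, matplotlib 3.10.9 and blastn 2.17.0 were used.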

Additional observations from a re-analysis of the deposited data

How the results depend on the processing

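The thresholded peak at vig-1 was the only one of the 7 genes in every setting that kept its summit in range (1 of 7 each). It was found with windows of 500 bp (1.22% of all protein-coding genes) and 2000 bp (1.93%), and with every transcript start (1.53%). Interval overlap, nearest-gene assignment and the strongest 130 peaks also kept it, without a share over all genes being computed. So did the strongest 261 calls of replicate 2 alone (1.46%) and of replicate 1 alone (1.26%). With its summit at 424 bp and ranks of 14, 19 and 13, the call had to be kept in these settings, so they give it no further support. With a window of 250 bp the count was 0 (0.721% of all protein-coding genes), since the summit is 424 bp away. The number of genes with a pooled call was 0 at 250 bp and 2 at 500 bp, 2 among the strongest 1000 calls (3.82% of all protein-coding genes) and 3 among the strongest 5000 (12.3%), and 3 to 6 with a replicate left out (49.6% in replicate 1 alone and 49.1% in replicate 2 alone). The genes among the strongest 1000 were vig-1 and ain-1. In replicate 1 the count was 1 at 250 bp (17.2%) and 1 at 500 bp (31.3%), and in replicate 2 it was 2 at 250 bp (17.5%) and 5 at 500 bp (31.2%). The share of all protein-coding genes with a pooled call was 17.0% at 250 bp, 31.2% at 500 bp and 68.3% at 2000 bp. Without replicate 1 the strongest call at ain-2 was 714 bp downstream in place of 534 bp upstream. With a window of 2000 bp, chosen for the replicate lists after the values were seen, the strongest replicate 1 call at ain-1 ranked 1046 in place of 29848. In replicate 2 it ranked 2778 in place of 28871 at alg-1 and 2998 in place of 29069 at ain-2. A count was called the same within 1.5 times. At 500 bp none of the 18 other Argonaute genes or the 9 miRNA processing and turnover genes had a thresholded peak. The share over all protein-coding genes was 1.22%, so lists this short cannot show a lack. No paired analysis was possible because there was 1 group. Depth is unknown, and its part in a missing call was not tested.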
